A study of Mus musculus with 6 samples.

Results

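Tomm22 and 9 other genes of the mitochondrial import machinery were followed in mouse LSK cells, the sorted bone marrow fraction of stem cells and multipotent progenitors that lacks lineage markers and carries Sca-1 and c-Kit. The genes were selected by name: Tomm22, Tomm20, Tomm40, Tomm7 and Tomm5 of the outer membrane, and Timm23, Timm44, Timm50, Timm8b and Timm10 of the inner membrane and the space between. They are 10 of 34821 names that the files give, where an unnamed probe counts under its own ID, and are measured by 18 of the 55681 probes on the array, and each probe was treated on its own. The set was put together because the Tomm22 probe was already known to read lower in the mutant. The genotype values of these genes are therefore a description, and no test is given for them.

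LSK cells were sorted from wild-type mice (WT, samples 1, 3 and 5) and from NIKaly/aly mice (samples 2, 4 and 6), with 1 Cy3-labelled RNA sample on each of 6 arrays of 1 slide. NIKaly/aly mice carry the aly allele of Map3k14, the gene of the kinase NIK, on both chromosomes. This point mutation impairs signalling by NIK through the alternative NF-kB pathway and is present in every cell of the animal. The cells were freshly sorted and received no treatment that the labels name. Age, sex and strain background are not given in the sources used here. The labels do not state whether each sample is its own animal. Errors and p-values therefore measure the spread between 6 samples only, and that spread may be technical.

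Nearly all mitochondrial proteins are made in the cytosol and carried in. The TOM complex is the common gate of the outer membrane. Tomm20 and Tomm22 are its receptors, Tomm40 forms the channel, and the small subunits Tomm5 and Tomm7 shape the assembly. Presequence proteins then pass through the TIM23 complex, with Timm23 as channel, Timm50 as receptor and Timm44 as the tether of the import motor. Timm8b and Timm10 are small chaperones that guide hydrophobic proteins across the intermembrane space.

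The value of a gene rests on the short stretch of transcript that its probe reads, and Tomm22 has 1 probe. It lies on chromosome 15 at 79503096 to 79503155 (mm9, plus strand) and starts at base 827 of the transcript NM_172609, as the files number it. The exon and UTR annotation of these positions was not analysed here. The first 30 of its 60 bases are shown because the largest difference of the set rests on them, with no base marked. Tomm20 has 2 probes at 1 position, chromosome 8 at 129458446 to 129458505 (mm9, minus strand), that differ at 3 bases. Counted from the probe's 5′ end these are A13G, A17C and G57A, and the first 2 stand in capitals in the first 30 bases below.

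Tomm22 probe: acaaaattcattatacctgagtacagaagt
Tomm20 probe from base 1044: gtgtttgtgaaaActgAgcattaaaacctt
Tomm20 probe from base 953: gtgtttgtgaaaGctgCgcattaaaacctt

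No probe under another name shared 20 consecutive bases with the Tomm22 probe. Among the other members, 2 such probes were found, 1 for Timm23 (genotype difference -0.016 log2) and 1 for Tomm20 (-0.10), both without a gene name.

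Signals are given as log2 of the processed spot intensity minus the log2 of the array's 75th percentile, so a value of 0 is that percentile itself. A difference is NIKaly/aly minus WT on this log2 scale. The fit took the 21220 probes with a value on every array that Feature Extraction called well above background on 3 or more of the 6. Of the 18 import probes, 17 did, and each of the 17 had that call on all 6 arrays. The second Tomm7 probe, from base 1048, had it on 0 arrays and is not used further.

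Of the 59305 non-control spots, 33.1% to 45.6% were well above background, depending on the array. No probe of the 21220 passed limma's test of genotype at a Benjamini-Hochberg adjusted p of 0.05 (0%), and 271 (1.28%) had an unadjusted p under 0.05. The LSK markers fit the labels: 8 of 9 were tested, among them Kit, Ly6a, Cd34 and Flt3, and all 8 were well above background on every array, while Slamf1 was so on 1 array of each genotype. Genes of mature cells were bright as well, with a mean level of 6.06 to 8.94 for 6 neutrophil genes. Over the tested probes, arrays with consecutive sample numbers, 1 of each genotype, correlated at r = 0.974 to 0.989 (Pearson, across probes), and arrays of 1 genotype at 0.934 to 0.974.

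Tomm22, the central TOM receptor that also links the complex's subunits, read 4.42, 3.72 and 3.59 in WT 1, 3 and 5. In NIKaly/aly 2, 4 and 6 the values were 1.29, 0.28 and 2.09. All 3 mutant arrays lay below all 3 wild-type arrays. The mean was 3.91 ± 0.45 (SD, n = 3) in WT and 1.22 ± 0.91 (SD, n = 3) in NIKaly/aly. The difference was -2.69 ± 0.47 (SE), a 6.47-fold lower signal. In this bulk measurement, fewer cells that express a gene and less of its RNA per cell cannot be told apart. Whether the signal of this single probe stands for the whole Tomm22 transcript was not tested.

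The low mutant signals were still far from the detection limit. The processed intensity of Tomm22 was 306, 244 and 216 in NIKaly/aly 2, 4 and 6, where the dimmest spot called well above background on these arrays had 21.4, 19.3 and 17.0. In WT 1, 3 and 5 it was 1006, 2960 and 968. These intensities are not scaled between arrays. The arrays' 75th percentile ran from 47.0 in WT 1 and 50.8 in NIKaly/aly 6 to 225 in WT 3, so the order of arrays differs from that of the scaled values. Of all tested probes, 41 (0.193%) were at least 4-fold lower in NIKaly/aly, Tomm22 among them, and its difference ranked 21 from the lowest. At least 2-fold lower were 302 (1.42%), and 467 (2.2%) were at least 2-fold apart in either direction. Groups did not overlap, with NIKaly/aly lower, for 426 probes (2.01%) and with NIKaly/aly higher for 544 (2.56%). Since Tomm22 was picked for this difference, these shares only place it.

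**Figure D1:**
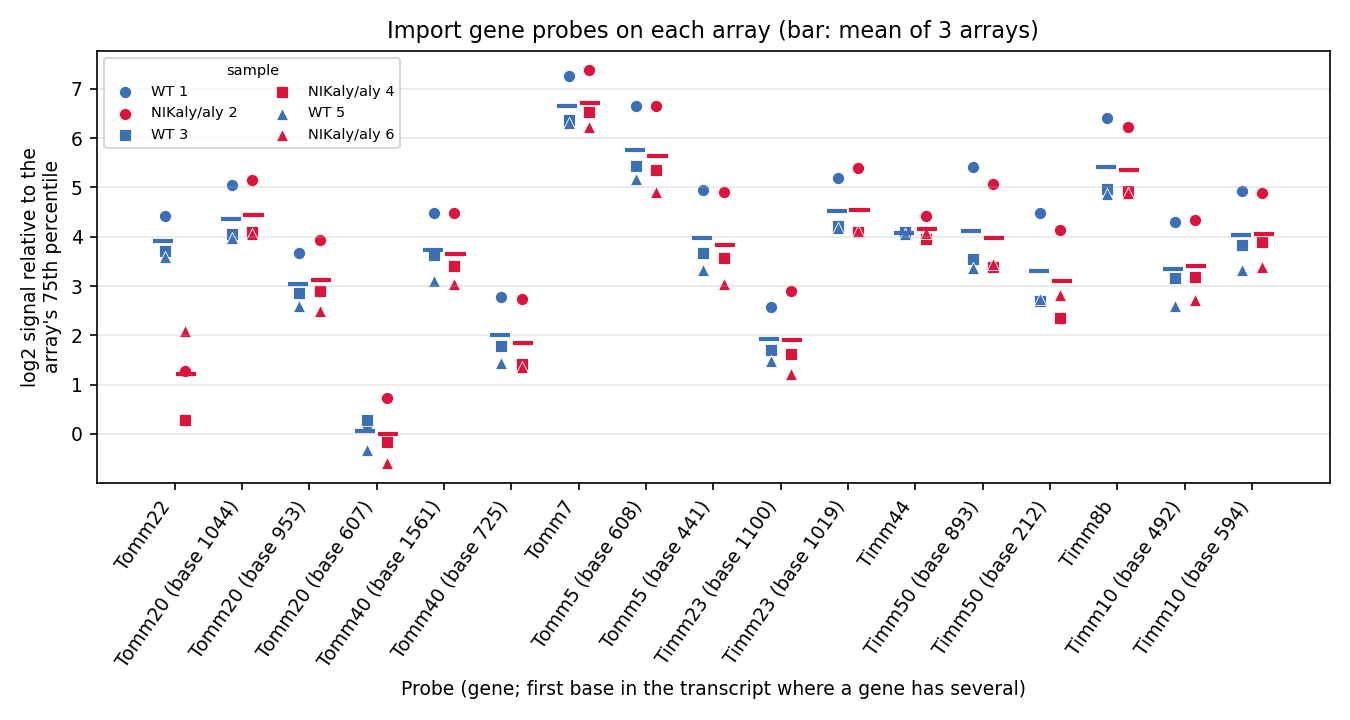
Log2 signal relative to the array's 75th percentile (y axis) of the 17 import gene probes (x axis), with 1 point per array, blue for WT and red for NIKaly/aly, and bars for the mean of 3 arrays. The Tomm22 points of NIKaly/aly lie at 0.28 to 2.09 and those of WT at 3.59 to 4.42, while for the other 16 probes the colours overlap.

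The gap was not of 1 size. Taken between consecutive sample numbers, Tomm22 was lower by -3.13 in samples 1 and 2, -3.44 in samples 3 and 4, and -1.50 in samples 5 and 6. Samples 1 to 4 share slide row 1, within which the difference was -3.29. Row 2 holds samples 5 and 6, and so 1 array of each genotype. NIKaly/aly 6 was the mutant array with the highest Tomm22 level and NIKaly/aly 4 the one with the lowest.

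The other outer membrane genes did not share the gap. Tomm20, the receptor that first binds presequences, read 5.05, 4.05 and 3.97 in WT 1, 3 and 5 with its probe from base 1044. In NIKaly/aly 2, 4 and 6 the values were 5.16, 4.10 and 4.06. The groups overlapped nearly fully, with a difference of 0.085 ± 0.43 (SE, n = 3 per genotype). The Tomm20 probe from base 953, which differs from it at 3 bases, gave 0.074, and the dimmer one from base 607 gave -0.065. So each of 3 probes placed Tomm20 within 0.1 log2 of no difference.

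Tomm40, the channel itself, read 4.48, 3.63 and 3.09 in WT 1, 3 and 5 with its probe from base 1561. In NIKaly/aly 2, 4 and 6 the values were 4.48, 3.40 and 3.04, a difference of -0.094 ± 0.48. Its probe from base 725 differed by -0.17. Tomm7, which counters the action of Tomm5 and Tomm6 in assembly of the complex in yeast, read 7.26, 6.36 and 6.31 in WT and 7.37, 6.54 and 6.23 in NIKaly/aly (0.070 ± 0.44). The probes of Tomm5, a small subunit at the channel, differed by -0.12 and -0.14. In each of these genes, WT 1 and NIKaly/aly 2 were the high arrays and the genotypes overlapped.

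The inner membrane side looked alike. Timm23 had differences of 0.0032 and -0.011 with its probes. Timm50, the TIM23 receptor, differed by -0.15 ± 0.65 with its probe from base 893 and by -0.20 ± 0.61 with that from base 212, the largest difference of the set after Tomm22. It was lower in samples 2 and 4 than in 1 and 3, and higher in sample 6 than in 5. The chaperone genes Timm8b (-0.060) and Timm10 (0.062 and 0.027) also overlapped between genotypes. Timm44 read 4.05, 4.10 and 4.06 in WT 1, 3 and 5 and 4.43, 3.94 and 4.08 in NIKaly/aly 2, 4 and 6. It had the smallest range over the 6 arrays of all import probes, 0.48, and a difference of 0.080 ± 0.27.

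Counted together, 7 of the 16 probes other than Tomm22 read higher in NIKaly/aly and 9 lower, where 48.5% and 51.5% of all tested probes did. Their differences ran from -0.20 to 0.085 with a median of -0.035, against -0.0089 over all tested probes. Each of the 16 was smaller than its own SE (0.27 to 0.65), and none of the 16 had groups that did not overlap. With a block of consecutive sample numbers, which the labels do not call pairs, the SEs were 0.12 to 0.25. Then 4 of the 16 differences, all below 0, were larger than their SE. They came from both Timm50 probes and from a single probe each of Tomm40 and Tomm5, whose other probes stayed below their SE. The share of all tested probes that exceed their SE in this fit was not counted. The 4 are therefore not read as a result about these genes. The median of the 16 lies so near 0 that array median scaling, which moved the median of all tested probes from -0.0089 to 0.090, put it at 0.064, and normexp background correction at 0.062.

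Where a gene had several probes, they moved alike from array to array. Pearson's r over the 6 arrays was 0.968 or above for the probe pairs of Tomm40, Tomm5, Timm23, Timm50 and Timm10 and for the 2 Tomm20 probes at 1 position. It was 0.75 and 0.87 between these and the dim Tomm20 probe from base 607. These are descriptions over 6 arrays that share their scaling. The 3 base differences between the Tomm20 probes printed above went with a genotype difference that moved by 0.011. They also went with a lower level. The probe from base 1044 had means of 4.35 in WT and 4.44 in NIKaly/aly, and that from base 953 had 3.04 and 3.11. Tomm22 has no second probe with which to make such a comparison.

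What the 16 probes shared was a pattern over arrays rather than over genotypes. Their mean deviation from their own mean was 0.77 in WT 1 and 0.83 in NIKaly/aly 2. It was -0.23 and -0.34 in WT 3 and NIKaly/aly 4, and -0.49 and -0.55 in WT 5 and NIKaly/aly 6. In NIKaly/aly 2 all 16 probes lay above their own mean, and in WT 1 all but Timm44 did. When arrays were scaled to the 75th percentile of probes well above background on all 6, the first 2 values were 0.49 and 0.49, still the highest. The pattern was not particular to these probes. Samples 1 and 2 also had the highest mean level in each list of other import genes described below. In the TIM23 and motor list they read 4.17 and 4.46, against 3.30 to 3.52 in the others. The ribosomal protein gene Rpl3 read 10.10 and 9.96 against 9.21 to 9.35. The erythroid markers moved with this pattern: the mean level of the 4 tested of 6 was 4.48 and 3.74 in samples 1 and 2 and -0.12 to 1.04 in the others. B cell markers, 5 tested of 6, were at 3.71 and 2.54 against -0.70 to 1.84. Neutrophil means were highest there too, 8.94 and 8.33 against 6.06 to 7.88. T and NK cell means were at 2.51 and 1.92 against 0.16 to 1.89. Macrophage means, 2.65 and 2.01 against 0.95 to 2.45, did not set both samples above the rest. LSK means hardly did, with 4.52 and 4.71 against 4.37 to 4.52. The part of such cells in the import genes' pattern was not tested.

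**Figure D2:**
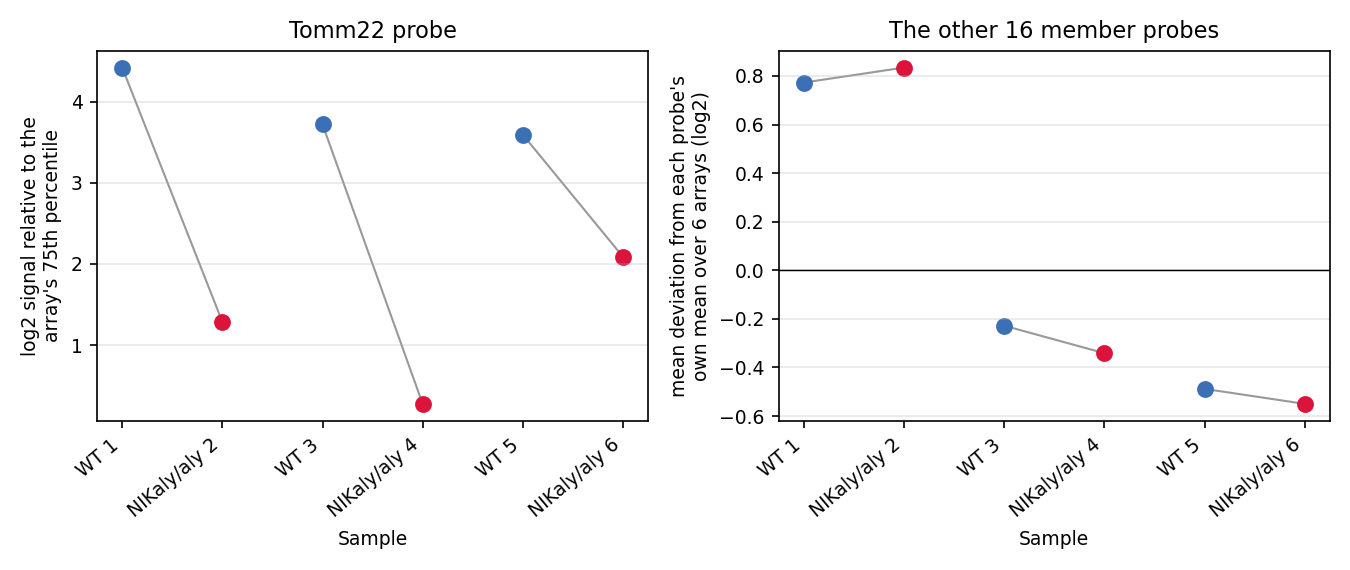
Left, the log2 signal of Tomm22 relative to the array's 75th percentile in each sample; right, the mean deviation of the other 16 import probes from their own means over 6 arrays (log2). Blue is WT, red NIKaly/aly, and lines join consecutive sample numbers. Tomm22 drops by 1.50 to 3.44 along each line, while the other probes shift by little along the lines and separate samples 1 and 2 (0.77 and 0.83) from the rest.

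Set against the other members on the same array, the Tomm22 gap stayed. The signal of Tomm22 minus the median of the other 16 probes was -0.28, 0.066 and 0.27 in WT 1, 3 and 5. It was -3.40, -3.21 and -1.12 in NIKaly/aly 2, 4 and 6. No array scaling by a constant enters this quantity, whose change between genotypes was -2.60, or 6.05-fold lower. Across the 6 arrays, the correlation of Tomm22 with each of the 16 other probes lay between -0.14 (Timm44) and 0.32 (Timm50), a description over 6 arrays. The mean levels of all 6 marker lists of LSK and mature cells overlapped between genotypes. Between consecutive sample numbers, however, the B cell, macrophage and erythroid means were lower in NIKaly/aly each time, and the LSK mean was higher. All 4 tested erythroid markers (median -0.47) and all 6 neutrophil markers (median -0.16) read lower in NIKaly/aly. Of 8 tested LSK markers, 5 read higher and 3 lower, with Procr higher without overlap of the groups (0.78 ± 0.28). All 5 tested B cell markers read lower in NIKaly/aly, by a median of -1.11, with mean levels of 0.84 to 3.71 in WT and -0.70 to 2.54 in NIKaly/aly, and their part in the Tomm22 gap was not tested. All 3 tested macrophage markers of 5 read lower too, 1 of them, Csf1r, without overlap of the groups (-1.17 ± 0.33), while Mrc1 was at background on all 6 arrays. Of 6 T and NK cell markers, 5 were tested, with 2 higher and 3 lower. Cd3e, Cd3d, Cd4 and Nkg7 were detected on every array but Cd8a on none. The part of macrophages, T cells, erythroid cells and neutrophils in the gap was not tested either.

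Other genes of protein import, 48 in 5 lists, were read from their brightest probe, and 45 were tested. None passed limma's threshold in either direction, against 0 of 21220 probes tested, and none had an unadjusted p under 0.05. Of the 45, 25 read higher and 20 lower in NIKaly/aly, with a median of 0.025 and a range of -0.34 to 0.33. None of these 45 probes had groups that did not overlap, where 4.57% of all tested probes did. The 19 further, dimmer probes of these genes spread more widely, from -0.72 (Grpel2, a motor co-chaperone) to 0.35 (Timm9, a small Tim chaperone), with 8 higher and 11 lower. Of the 19, a probe of Oxa1l, an inner membrane insertase, had groups that did not overlap (-0.39 ± 0.30), and a probe of Mtch2, an outer membrane insertase, differed by -0.71 ± 0.72. Over all 64 tested probes of the 45 genes, none had an unadjusted p under 0.05.

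Among the other outer membrane genes, 5 of the 10 tested read higher and 5 lower. Mtch1, an insertase of the outer membrane, differed by -0.23 ± 0.51 (SE) and Tomm70a, the receptor for carrier proteins, by 0.16 ± 0.31. The TIM23 and motor list had 7 higher and 3 lower of 10, with the motor co-chaperone Dnajc19 at 0.27 ± 0.47 and the channel subunit Timm17b at -0.25 ± 0.59. Of the 7 tested genes of TIM22 and the small Tim chaperones, 3 read higher and 4 lower. The entry 1810026J23Rik, now Timm29, a TIM22 subunit, had the largest difference there (0.33 ± 0.37), and Timm13, a small Tim chaperone, differed by -0.16 ± 0.59. Limma's adjusted p was 0.99998 for each gene named in these lists.

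In the list for intermembrane space oxidation and OXA insertion, 2 of 5 genes read higher. Gfer, the oxidase of the disulfide relay, differed by -0.34 ± 0.50 and Aifm1, which helps import the relay's receptor, by 0.18 ± 0.35. Of 13 tested genes for presequence processing and matrix folding, 8 read higher and 5 lower. The inner membrane protease Afg3l2 differed by -0.22 ± 0.35 and the matrix protease Clpp by -0.20 ± 0.51. For each of the genes named in this list and the one before, the difference was smaller than its SE.

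**Figure D3:**
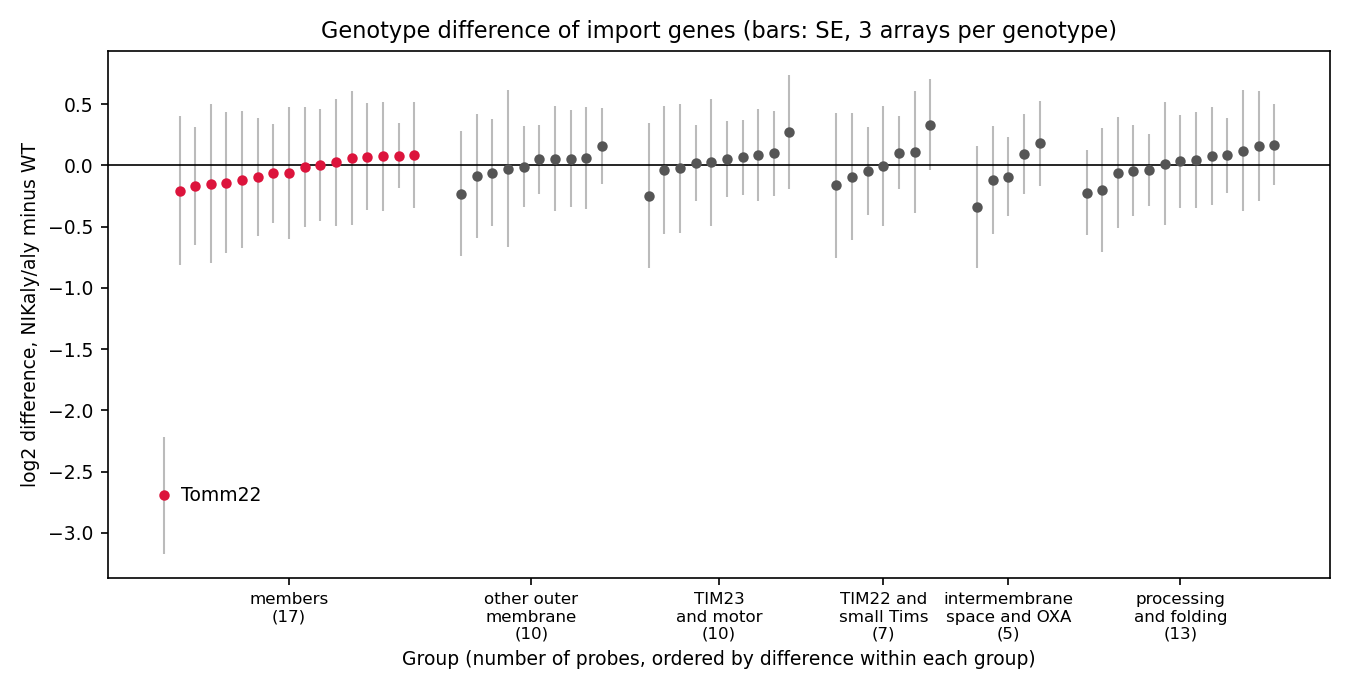
Log2 difference, NIKaly/aly minus WT (y axis, bars are SE, n = 3 per genotype), of the 17 member probes (red) and of 45 other import genes in 5 groups (grey, brightest probe of each), ordered by difference within each group on the x axis. Tomm22 lies at -2.69 and every other point between -0.34 and 0.33.

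The probe most like Tomm22 over the 6 arrays was one of its neighbours on the chromosome. By Pearson's r over 6 arrays, the 5 genes with the highest likeness among 21219 probes were Apobec3 (0.993), P2rx4 (0.977), Pnpla7 (0.972), Siglecf (0.963) and Mef2d (0.963). In all, 42 probes (0.198%) had r above 0.9. Apobec3, a cytidine deaminase that restricts retroviruses, has this probe on chromosome 15 at 79725905 to 79725964 (mm9), 223 kb from the Tomm22 probe. The other 4 genes lie on chromosomes 5, 2, 7 and 3.

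Apobec3 read 0.87, 0.28 and 0.12 in WT 1, 3 and 5 and -1.31, -1.72 and -0.86 in NIKaly/aly 2, 4 and 6. As for Tomm22, the mutant arrays all lay below the wild-type ones and NIKaly/aly 6 was the highest of the 3. The difference was -1.72 ± 0.37 (SE), a 3.29-fold lower signal. Of its other 2 probes, one differed by -1.48 without overlap of the groups and had r of 0.96 with Tomm22. The other differed by -1.20 with overlap and had r of 0.32. The labels do not say whether the genotypes share a strain background, so the Map3k14 genotype and strain differences at this stretch of chromosome 15 cannot be told apart in the values of Tomm22 and Apobec3. The differences of the other 4 genes were smaller, from -0.47 (P2rx4) to -0.20 (Mef2d), and the further probes of P2rx4 and Mef2d had r of -0.083 to 0.71 with Tomm22. Genes named here for their likeness were picked for an order that contains the genotype gap, so their differences are given without a test.

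The probes around Tomm22 were then read by position. Within 200 kb there were 26 other probes, of which 12 were tested. Of the 12, 11 read lower in NIKaly/aly (median -0.16), against 51.5% of all tested probes. The 12 come from 9 gene names and so are not independent of each other. Groups did not overlap for 1 of them, Ddx17 (-0.14 ± 0.28), against 2.01% of all tested probes with NIKaly/aly lower. Josd1, a deubiquitinase gene whose probe starts 1604 bases away, differed by -0.16 ± 0.34, and Cby1, on the other side, by 0.069 ± 0.45. Gtpbp1, a GTP-binding protein gene 48303 bases away, read 2.91 to 3.81 in WT and 2.17 to 3.04 in NIKaly/aly (-0.69 ± 0.36). Its groups overlapped, though the mutant was lower in each consecutive pair, as for 15.7% of all tested probes. Gtpbp1 and a Cbx6 probe (-0.46 ± 0.44) apart, each lower difference within 200 kb was smaller than its SE.

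Within 1000 kb, 55 other probes were tested, and 44 (80%) read lower. For 8 of them (14.5%), from 7 gene names, all mutant arrays lay below all wild-type arrays, and for none above. The background of such lower probes was 2.01%. None of the 55 passed limma's adjusted threshold, and 3 had an unadjusted p under 0.05, where 1.28% of all tested probes did. The 3 were the Apobec3 probes at -1.72 and -1.48 and the probe of Lgals1 (-1.29 ± 0.56), whose groups overlapped. Apobec3 had been picked above for its likeness to Tomm22. Several probes read the same gene, so the 55 are not independent of each other. The difference nearest in size to that of Tomm22 within this window was that of Apobec3.

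**Figure D4:**
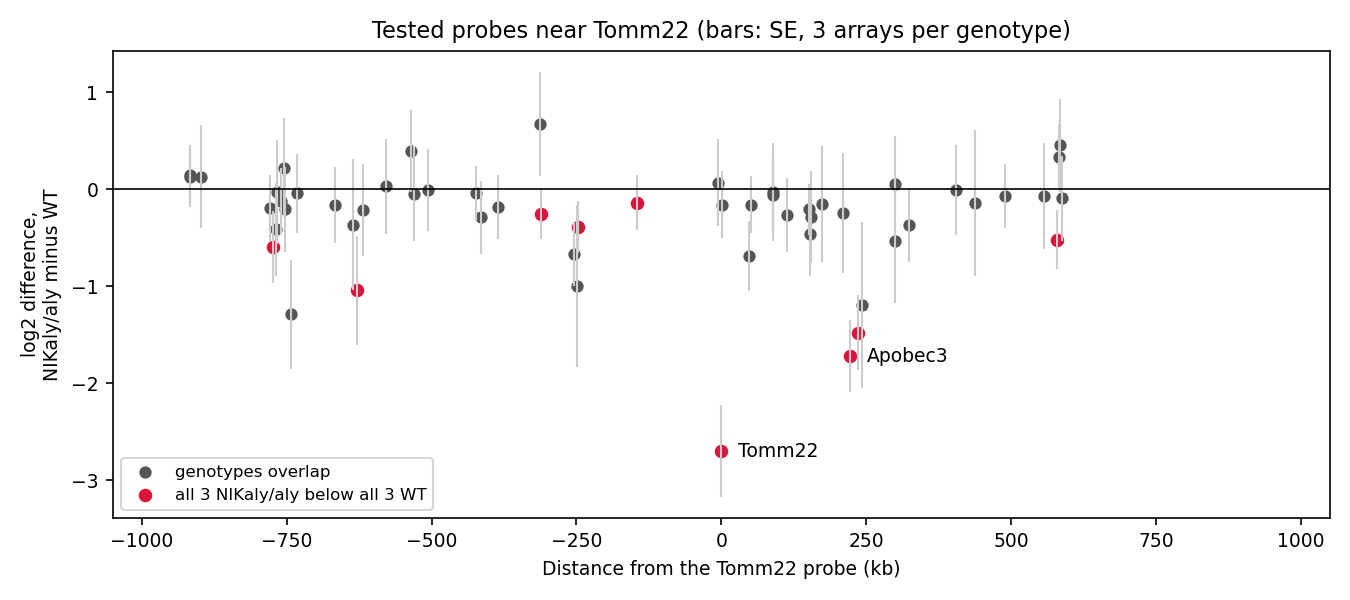
Log2 difference, NIKaly/aly minus WT (y axis, bars are SE, n = 3 per genotype), of tested probes by their distance from the Tomm22 probe in kb (x axis). Red points have all 3 NIKaly/aly arrays below all 3 WT arrays; Tomm22 (-2.69) and 2 Apobec3 probes (-1.72 and -1.48) are the lowest of these.

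The start region of Tomm22 is shown because Tomm22 alone among the members has the gap. The other members share a pattern over arrays, as do the lists of other import genes. RefSeq sequence (GRCm38.p6) before the start of transcription was matched by symbol for 9 of the 10 genes, all but Tomm7. The 250 bases before each start were searched on both strands for CCGGAAG, a core bound by ETS factors such as GABP, and for GCGCA, any base and GCGC in a row, the motif of NRF1. Both factors are known for their sites at nuclear genes of mitochondrial proteins. The Tomm22 stretch, chr15:79670618-79670867 on the plus strand, holds the ETS core on both strands in 1 overlapping stretch, in capitals.

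Tomm22 promoter: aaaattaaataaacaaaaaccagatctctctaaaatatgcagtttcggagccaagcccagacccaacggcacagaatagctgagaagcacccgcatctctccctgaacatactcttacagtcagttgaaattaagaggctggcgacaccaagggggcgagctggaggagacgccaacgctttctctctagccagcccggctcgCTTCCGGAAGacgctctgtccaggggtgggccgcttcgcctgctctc

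The ETS core was found in 4 of the 9 genes, Tomm22, Timm23, Timm8b and Timm10, and in 6.91% of the 32851 start regions in the table. The NRF1 motif was found in 1 of the 9, Tomm20, and in 3.74% of all. Of the genes with the ETS core, Tomm22 differed by -2.69, and Timm23, Timm8b and Timm10 by -0.060 to 0.062. The part of the ETS core in these values was not tested. These matches describe letters only.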

How the data were processed

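The authors deposited scanner output with spot intensity values, made with Agilent Feature Extraction (version 10.7.3.1 in the file headers), with mm9 probe positions. Per the file headers, the processed intensity has the background removed and a surrogate in place of values too low to use. The authors' deposited table holds, for each array, the ratio of the processed signal to the array's median (100% of 55249 single-spot probes within 0.1%), and so repeats median scaling.

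Spots marked as outliers were left out, spots of a probe were averaged, and the log2 of each array's 75th percentile was subtracted. Genotype was fitted with limma 3.58.1 in R 4.3.3 (lmFit, eBayes with intensity trend, two-sided, Benjamini-Hochberg adjustment over 21220 probes) and tested on simulated data. With 3 arrays a genotype, the number of arrays limits the precision. Members and lists were chosen with earlier results of these data known, and the position windows, shared-base search and motif search were added after the files were seen. All member probes, the 2 genes of each import list with the largest difference and the 5 genes most like Tomm22 are named by rule. Marker genes, neighbours and further import probes were named after their values were seen. Names are those of the files, with current symbols from a RefSeq table (27509 probes by accession, 3549 by symbol, 405 by synonym, 24218 unmatched). Alternatives covered scaling, background correction, dim-probe filters, blocks, weights, the variance trend and left-out arrays.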

Additional observations from a re-analysis of the deposited data

How the results depend on the processing

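The difference of Tomm22 kept its direction in all 19 alternatives, from -3.29 (within slide row 1) to -2.22 (without NIKaly/aly 4). For most of them this was fixed in advance. All 3 mutant arrays lie below all 3 wild-type arrays, so leaving arrays out cannot reverse it. The dim-probe filters, the fixed blocks and the fit without intensity trend leave the estimate at -2.69. The kept direction is therefore no support for the gap. The median over the 17 member probes, -0.060, ran from -0.50 (without NIKaly/aly 2) to 0.34 (without WT 1), so its sign rests on which array is left out. The count of other import genes past the threshold was 0 in all 19, where the median ran from -0.29 to 0.24. The count of probes called among all tested, 0 in limma as first fitted (271 at an unadjusted p under 0.05), was 5 with array median scaling, 1 with normexp, 12 with no filter on dim probes, 2 with a block of consecutive sample numbers and 1876 with array column as a random block. That block's estimated correlation within a column, -0.87, shrinks the error of the genotype term. Leaving out 1 array gave 0 to 1, with 1 called without WT 3. For the other counts that moved, the cause was not tested. The labels give the genotypes no shared sample number. The block of consecutive numbers follows sample order only. Arrays within such a block correlated at r = 0.974 to 0.989, but WT 3 and WT 5, from different blocks, also did at 0.974. This block of consecutive numbers raised the probes with an unadjusted p under 0.05 from 271 to 1495 and took the SE of Tomm22 from 0.47 to 0.33. Probes near background, where signal over background limits what can be read, include no member but the second Tomm7 probe.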
